A study of Bos taurus with 14 samples.

Results

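The miR-130, miR-301 and miR-454 family comprised 5 mature miRNAs, bta-miR-130a, bta-miR-130b, bta-miR-301a, bta-miR-301b and bta-miR-454. They were selected by name from the table of small RNA counts, and so were 5 of the 1030 mature miRNA names listed there. A miRNA directs Argonaute proteins to messenger RNAs through its seed, a short stretch near its 5′ end, and the messenger RNA is then translated less or degraded. The members of this family carry the same seed and therefore share most of their predicted targets. In mammals the family is known from blood cell formation, blood vessel growth and inflammatory signaling.

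Small RNA was sequenced from peripheral white blood cells (PWBC) of 14 Angus-Simmental crossbred heifers, bled at weaning, with 1 library per heifer. The fertile heifers (FH, n = 7) became pregnant to artificial insemination. The subfertile heifers (SFH, n = 7) are labelled as not pregnant to artificial insemination, and the study's methods describe them as heifers that did not become pregnant at all. The comparison asked whether miRNAs in blood taken at weaning differed between heifers with these later outcomes. PWBC are a mixture of cell types, and fewer cells of a type and less RNA per cell cannot be told apart in these libraries.

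The total count over mature miRNAs ranged from 1754971 to 5468341 in the FH group, with a median of 3319368. In the SFH group it ranged from 1831960 to 3958469, with a median of 2663375. Levels are given as CPM, the count after scaling each heifer to a total of 1000000 over 341 miRNAs. These were the miRNAs that reached a CPM of 1 in 7 or more heifers. Of the family, 4 members passed this filter, and bta-miR-301b, which reached a CPM of 1 in 4 heifers, did not. A miRNA without a count could still have been present at up to 3 counts, which corresponded to between 0.549 and 1.71 CPM depending on the heifer. That limit and the binomial intervals below cover counting error only.

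The leukocyte label was checked against marker miRNAs. The lymphocyte markers bta-miR-150 and bta-miR-342 summed to between 42775 and 108052 CPM, and bta-miR-150 was the more abundant. The myeloid and general leukocyte markers bta-miR-223, bta-miR-142-3p and bta-miR-142-5p summed to between 21272 and 44970 CPM, led by bta-miR-223 except in SFH heifer 28. All 5 of these miRNAs were counted in every heifer. Of the erythroid markers, bta-miR-451 and bta-miR-486 summed to between 1463 and 9236 CPM, with SFH heifer 30 the highest, whereas bta-miR-144 had no count in any heifer. The platelet and endothelial markers bta-miR-126-3p and bta-miR-126-5p summed to between 4.52 and 68.3 CPM, mostly bta-miR-126-3p except in FH heifer 22. The epithelial list summed to at most 249.4 CPM, nearly all from bta-miR-200c, and the liver marker bta-miR-122 to at most 4.65 CPM. The muscle markers bta-miR-1, bta-miR-133a and bta-miR-206 had a median sum of 6.44 CPM, but reached 275 CPM in SFH heifer 21.

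Precursor genes were located by name in RefSeq genes of the ARS-UCD2.0 assembly, which is later than the one used for the counts. All 5 precursors were found there, and they lay in 3 places. MIR130A stood alone on chromosome 15, beside YPEL4 and a long noncoding RNA gene. MIR130B and MIR301B were next to each other on chromosome 17, with SDF2L1 on the far side of MIR301B. MIR454 and MIR301A were next to each other on chromosome 19, both within the span of SKA2, and PRR11 was the next gene beyond MIR301A. Each of the 2 pairs thus joined an abundant and a scarce member.

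The family was dominated by bta-miR-130b. Its level was 448 ± 127 CPM (SD, n = 14), which placed it 97th of the 341 miRNAs by mean CPM, and it made up 66.5 ± 6.13% (SD, n = 14) of the family's counts. The second most abundant member was bta-miR-454, at 201 ± 53.8 CPM (SD, n = 14), rank 124 and 30.5 ± 6.01% of the family. The level of bta-miR-130a was 14.5 ± 10.9 CPM (SD, n = 14), rank 239 and 2.03% of the family. Both miR-301 members were scarce and had no count in some heifers, although bta-miR-301a reached 13.7 CPM in FH heifer 24 and bta-miR-301b 13.6 CPM in SFH heifer 23. bta-miR-301a was at 4.77 ± 5.22 CPM (SD, n = 14), rank 315, and had counts in 9 of 14 heifers. bta-miR-301b was at 2.29 ± 4.75 CPM (SD, n = 14), with counts in 6 of 14 heifers.

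In the order of mean levels, bta-miR-130b exceeded bta-miR-454 in 14 of 14 heifers, by 1.15 ± 0.42 on the log2 scale (SD, n = 14). This difference had the smallest p that the exact two-sided sign-flip permutation test can give (p = 0.000122, adjusted p = 0.000244 over the 4 neighbouring pairs). bta-miR-454 exceeded bta-miR-130a in 14 of 14 heifers, by 4.48 ± 1.76 on the log2 scale (SD, n = 14; exact permutation p = 0.000122, adjusted p = 0.000244). bta-miR-130a exceeded bta-miR-301a in 11 of 14 heifers, by 1.73 ± 2.50 (SD, n = 14; exact permutation p = 0.0225, adjusted p = 0.0299). The last neighbours, bta-miR-301a and bta-miR-301b, had a log2 difference of 1.23 ± 2.73 (SD, n = 14), which did not pass the test (exact permutation p = 0.117). bta-miR-301a was the higher in 6 of 14 heifers, and in 4 heifers neither was counted. These comparisons pool both groups. In the FH group bta-miR-130a and bta-miR-301a had the same mean log2 level of 2.55, whereas in the SFH group the means were 3.68 and 0.21. In the SFH group the mean of bta-miR-301b, 0.86, was above that of bta-miR-301a. The order within a group was not tested. The pooled step from bta-miR-130a to bta-miR-301a was no longer past an adjusted p of 0.05 without SFH heifer 17, 23, 26, 30 or 32, or without FH heifer 27. Differences between members are of log2(TMM-normalized CPM + 0.5), and each mature miRNA was taken as 1 read per molecule, since mature miRNAs are of similar length. Adapter ligation can favor some miRNAs over others, and this was not measured. The paralogues differ at few bases, so that reads of bta-miR-130a and bta-miR-130b, or of bta-miR-301a and bta-miR-301b, may have been assigned to the wrong paralogue, and their levels are uncertain to that extent.

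**Figure D1:**
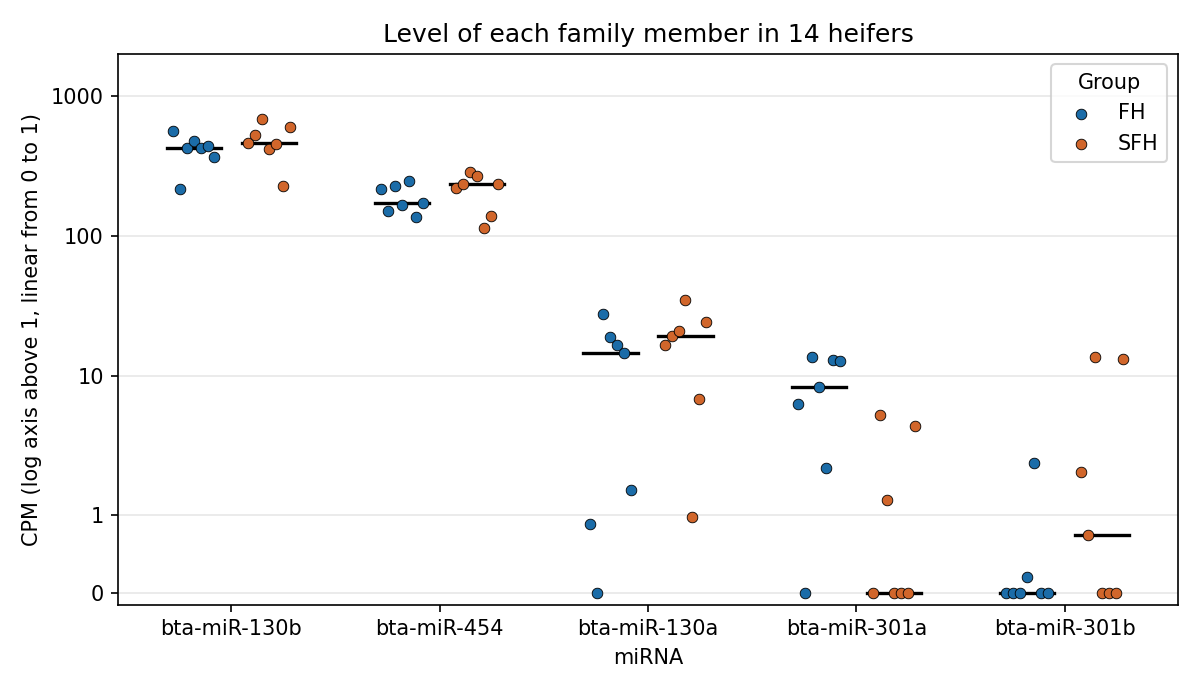
Level of each member in CPM (vertical axis, logarithmic above 1 and linear from 0 to 1) in each of the 7 FH and 7 SFH heifers, with 1 point per heifer and a bar at the group median. bta-miR-130b and bta-miR-454 lie above 114 CPM in every heifer, whereas bta-miR-301a is at 0 in 4 SFH heifers and 1 FH heifer.

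The coefficient of variation of bta-miR-130b over the 14 heifers was 28.3%, against 2.71% from counting alone at its mean count. For bta-miR-454 these values were 26.8% and 4.07%, and for bta-miR-130a they were 75.6% and 15.1%. With 1 library per heifer, differences between heifers and between library preparations cannot be told apart in this spread. bta-miR-130a, known from haematopoietic progenitors and endothelial cells, had a wide gap in its values: 4 heifers lay at or below 1.51 CPM and the other 10 at or above 6.82 CPM. The 4 low heifers were FH heifers 20, 22 and 31 and SFH heifer 28.

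Between FH and SFH, none of the 4 members tested passed, with edgeR on all 14 heifers, both thresholds for a differentially expressed miRNA (DEMI), which were an unadjusted p of 0.05 or less and a log2 fold change of 0.5 or more in either direction. In limma-voom bta-miR-301a passed both, as given below. With edgeR, 13 of the 341 miRNAs (3.81%) passed both, and with limma-voom 23 of the 341 did. After Benjamini-Hochberg adjustment over the 341 miRNAs, edgeR called 0 miRNAs (0%), against 20 at an unadjusted p of at most 0.05, and DESeq2 called 2 and limma-voom 0 after adjustment.

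bta-miR-130b ranged from 216 to 565 CPM in the FH group, with a median of 426, and from 226 to 680 CPM in the SFH group, with a median of 459. The groups overlapped almost completely, with the lowest heifer of either group, FH heifer 22 and SFH heifer 30, close to each other. The log2 fold change of SFH relative to FH was 0.11 (SE 0.25, edgeR adjusted p = 0.977). Its 95% interval ran from -0.41 to 0.63, so that a change past the fold threshold in the direction of SFH could not be told from none at this sample size. The log2 fold change was -0.0079 without FH heifer 22.

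bta-miR-454, encoded beside bta-miR-301a, ranged from 137 to 249 CPM in the FH group, with a median of 171, and from 114 to 285 CPM in the SFH group, with a median of 233. Of the SFH heifers, 5 of 7 lay above the FH median, but SFH heifers 28 and 30 were among the lowest of all. The log2 fold change was 0.12 (SE 0.26, edgeR adjusted p = 0.977), with a 95% interval from -0.42 to 0.65. It was 0.04 without SFH heifer 23 or 26 and 0.22 without SFH heifer 28, the lowest and highest values on leaving out a heifer.

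bta-miR-130a ranged from 0 to 27.4 CPM in the FH group, with a median of 14.4, and from 0.975 to 34.6 CPM in the SFH group, with a median of 19.2. Its groups overlapped, and 3 FH heifers but 1 SFH heifer were in the low set described above. The log2 fold change of 0.51 was smaller than its standard error (SE 0.96, edgeR adjusted p = 0.977), and its 95% interval ran from -1.50 to 2.51. It was 0.98 in limma-voom, and ranged from 0.23 without SFH heifer 26 to 0.84 without FH heifer 24.

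bta-miR-301a, a miRNA known to raise NF-κB activity, had the lowest edgeR p of the 4 members fitted. In the FH group it ranged from 0 to 13.7 CPM, with a median of 8.24. In the SFH group it ranged from 0 to 5.26 CPM, with a median of 0. The level in 5 of 7 FH heifers was higher than in any SFH heifer, and 7 of 7 SFH heifers were under the median of the FH group. The groups still overlapped, since FH heifer 22 had no count and FH heifer 27 was at 2.20 CPM. The counts behind these levels were small, at most 58 in FH heifer 29 and at most 14 in SFH heifer 21. The exact binomial (Clopper-Pearson) 95% interval was 9.78 to 16.6 CPM in FH heifer 29 and 2.88 to 8.82 CPM in SFH heifer 21. SFH heifers 17, 26, 28 and 30 had no count, which allowed up to 1.54, 1.15, 0.975 and 0.758 CPM by the limit of 3 counts. The upper ends of their exact binomial 95% intervals were 1.89, 1.42, 1.199 and 0.932 CPM. The lowest FH heifer in which bta-miR-301a was counted, FH heifer 27, had an exact binomial 95% interval of 1.13 to 3.83 CPM, which overlapped the intervals of SFH heifers 17, 26 and 28 but not that of SFH heifer 30. Counted against not counted, 6 of 7 FH and 3 of 7 SFH heifers, did not pass Fisher's exact test (p = 0.266).

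The edgeR log2 fold change of bta-miR-301a was -2.46 (SE 1.36, adjusted p = 0.890), with a 95% interval from -5.28 to 0.37. The unadjusted p of 0.0849 was above the threshold. In the exact two-sided permutation test on log2(TMM-normalized CPM + 0.5), the difference of SFH minus FH was -2.34 (p = 0.0303, adjusted p = 0.544 over the 341 miRNAs). A p of at most 0.05 in that test was reached by 21 of the 341 miRNAs (6.16%), and bta-miR-301a was 1 of these and the only member of the family among them. Unlike with edgeR on all 14 heifers, it passed both DEMI thresholds in limma-voom, with a log2 fold change of -3.11, and in edgeR without SFH heifer 21, with -3.24. By both thresholds limma-voom called 23 of the 341 miRNAs, and edgeR without SFH heifer 21 called 18 of the 341. The permutation p was above 0.05 without SFH heifer 17, 26, 28 or 30 (p = 0.0536 each) or without FH heifer 24 (p = 0.0559), 29 (p = 0.0565) or 31 (p = 0.0554).

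bta-miR-301b had counts in 2 of 7 FH heifers and 4 of 7 SFH heifers. In the FH group it ranged from 0 to 2.38 CPM, with a median of 0, and in the SFH group from 0 to 13.6 CPM, with a median of 0.751. Most of its 86 counts came from SFH heifers 23 and 32, with 42 and 24 counts, and FH heifer 27, with 13. The difference of SFH minus FH on the log2 scale was 1.42, which did not pass the exact permutation test (p = 0.168). It was 0.94 without SFH heifer 23 and 1.77 without FH heifer 27, the lowest and highest values on leaving out a heifer. bta-miR-301b was not fitted by edgeR because of the expression filter. Summed over the 5 members, the family was at 624 ± 136 CPM (SD, n = 7) in the FH group and 717 ± 204 CPM (SD, n = 7) in the SFH group.

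Ratios within a library were compared for the genomic neighbours and the paralogues. The log2 ratio of bta-miR-301a over bta-miR-454, which lie side by side, was -5.01 ± 1.75 (SD, n = 7) in the FH group and -7.43 ± 1.46 (SD, n = 7) in the SFH group. The difference of SFH minus FH was -2.42, with an exact permutation p of 0.0204 and an adjusted p of 0.0408 over the 4 ratios. The log2 ratio of bta-miR-301a over bta-miR-301b was 3.11 ± 2.22 (SD, n = 7) in the FH group and -0.65 ± 1.74 (SD, n = 7) in the SFH group, a difference of -3.76 (exact permutation p = 0.00991, adjusted p = 0.0396). Both ratios contain bta-miR-301a and are therefore not independent of each other or of its own difference. Heifers without a count enter these ratios through the pseudocount of 0.5. bta-miR-301a and bta-miR-301b were both counted in 5 of 14 heifers, and in FH heifer 22 and SFH heifers 26, 28 and 30 neither was, so that their log2 ratio there is 0 by construction. The size of the difference in this ratio is therefore not a measured fold, and it was -3.02 with a pseudocount of 1 and -5.50 with a pseudocount of 0.1. The difference in the ratio over bta-miR-454 was -1.98 with a pseudocount of 1 and -3.43 with a pseudocount of 0.1, so that its size is not a measured fold either. With a pseudocount of 0.1 the ratio over bta-miR-454 was no longer past an adjusted p of 0.05 (adjusted p = 0.0571).

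Whether these ratios passed also depended on which heifers were included. With each of the 14 heifers left out in turn, bta-miR-301a over bta-miR-301b had an adjusted p of at most 0.05 in 7 of 14 cases and bta-miR-301a over bta-miR-454 in 4 of 14, with adjusted p from 0.0105 up to 0.0746 and 0.0781. Neither ratio passed without SFH heifer 17 or 23, or without FH heifer 20, 24, 25, 29 or 31, and only the former passed without SFH heifer 26, 28 or 30. The difference was negative in every case, from -4.29 to -3.37 and from -2.95 to -2.15. The log2 ratio of bta-miR-130b over its neighbour bta-miR-301b was 9.25 ± 1.01 (SD, n = 7) in the FH group and 7.94 ± 1.82 (SD, n = 7) in the SFH group, with an exact permutation p of 0.127 (adjusted p = 0.169). That of bta-miR-130a over bta-miR-130b was -6.14 ± 2.07 (SD, n = 7) and -5.12 ± 1.46 (SD, n = 7), with an exact permutation p of 0.340 (adjusted p = 0.340).

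Co-variation across the 14 heifers was examined for all 10 pairs of members. Pearson's r ranged from -0.0404 for bta-miR-301a and bta-miR-301b to 0.656 for bta-miR-130a and bta-miR-454, and 0 of the 10 pairs had an adjusted p of at most 0.05. These values pool both groups, whose observed mean log2 levels of bta-miR-301a were 2.55 in FH and 0.21 in SFH, a difference that edgeR did not call. With values centred on the group mean, 0 of the 10 pairs passed as well, and the highest r was that of bta-miR-130b and bta-miR-301a, at 0.684 (permutation test, adjusted p = 0.0560) against 0.470 when pooled. It was 0.759 within the FH group and 0.599 within the SFH group (n = 7 each, exact permutation p = 0.0760 and 0.148). The pooled rho of this pair was 0.353 (permutation p = 0.216, adjusted p = 0.360), and the pooled r fell to 0.0793 when FH heifer 22 and SFH heifer 30 were left out, so that the pooled relation rested on these heifers. Within the FH group r was 0.0358 without FH heifers 20 and 22, whereas within the SFH group it was 0.9504 without SFH heifers 23 and 30. In the latter case SFH heifers 17, 26 and 28 had no count of bta-miR-301a, so that r rested on SFH heifers 21 and 32. For bta-miR-130a and bta-miR-301a, r was 0.226 when pooled and 0.523 when centred (permutation test, adjusted p = 0.104). For bta-miR-130a and bta-miR-454, whose precursors lie on different chromosomes, r was 0.656 (permutation p = 0.0110, adjusted p = 0.110 over the 10 pairs) and Spearman's rho 0.714 (permutation p = 0.00512, adjusted p = 0.0512). Without FH heifers 20 and 22, which were farthest from the median of bta-miR-130a, r was 0.777. In the 10 heifers with at least 10 counts of bta-miR-130a, a subset chosen after the values were seen, r was 0.702 but rho fell to 0.588. Without FH heifer 20 alone, r was 0.756 with an adjusted p of 0.0207. Leaving out other heifers, the adjusted p of this pair reached 0.256.

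Within the SFH group, bta-miR-130a and bta-miR-454 had an r of 0.939 (n = 7, exact permutation p = 0.00298, adjusted p = 0.0298) and a rho of 0.893 (n = 7, exact permutation p = 0.0123, adjusted p = 0.123). SFH heifer 28 was the lowest of its group in both miRNAs and SFH heifer 26 among the highest in both. Without SFH heifers 28 and 30, r was 0.638. In the FH group r was 0.494 (n = 7, exact permutation p = 0.249, adjusted p = 0.414), and the difference between the groups was not tested.

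**Figure D2:**
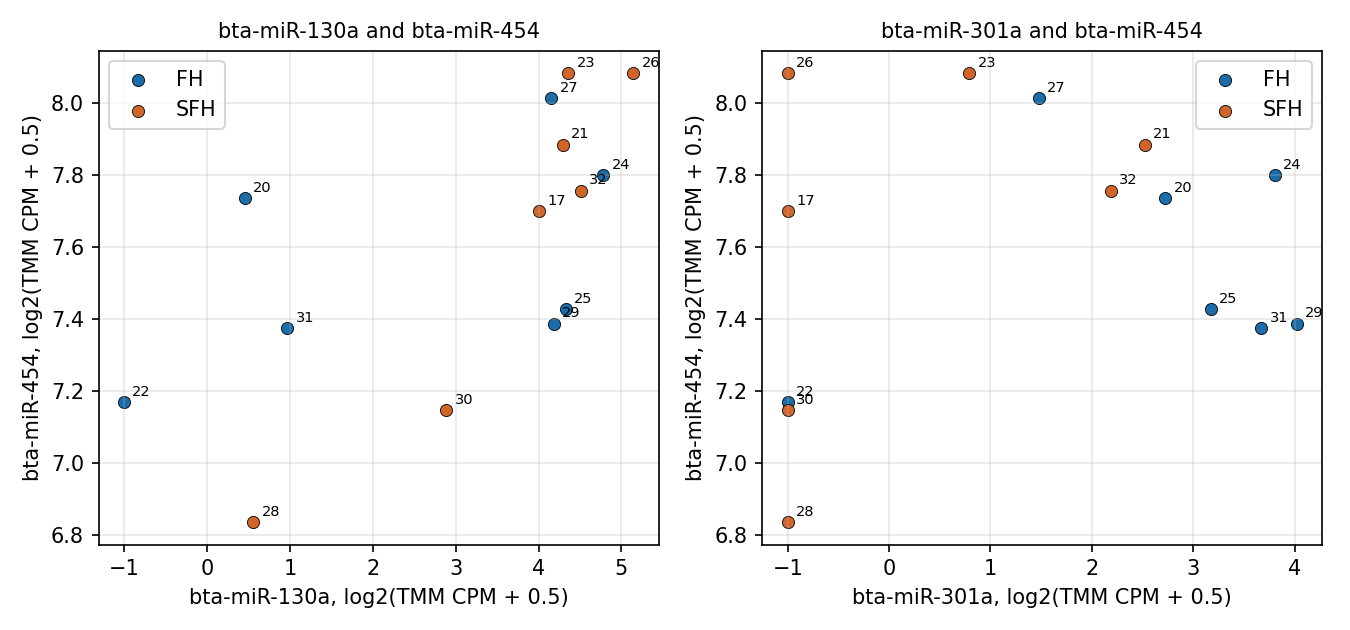
bta-miR-454 (vertical axes) against bta-miR-130a (left) and against its genomic neighbour bta-miR-301a (right), each as log2(TMM-normalized CPM + 0.5), with 1 point per heifer, labelled by heifer number, in 7 FH and 7 SFH heifers. Pearson's r over the 14 heifers is 0.656 on the left and 0.200 on the right, where the 5 heifers without a count of bta-miR-301a share the lowest value.

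The genomic neighbours did not stand out among the 10 pairs. bta-miR-130b and bta-miR-301b had an r of 0.486 (permutation p = 0.0640, adjusted p = 0.128) and a rho of 0.521 (permutation p = 0.0593, adjusted p = 0.198), with r 0.531 without FH heifer 22 and SFH heifer 30. bta-miR-301a and bta-miR-454 had an r of 0.200 (permutation p = 0.489, adjusted p = 0.543) and a rho of 0.0922 (permutation p = 0.756, adjusted p = 0.756), with r 0.447 without SFH heifers 17 and 26. Within the SFH group r was 0.440 and within the FH group 0.215. For the abundant members bta-miR-130b and bta-miR-454, r was 0.528 (permutation p = 0.0511, adjusted p = 0.128) and rho 0.371 (permutation p = 0.194, adjusted p = 0.360). It was 0.241 without FH heifer 22 and SFH heifer 30, so that this relation rested on these heifers, which were the lowest in bta-miR-130b.

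The members were also set beside all other miRNAs that had at least 10 counts in every heifer, of which there were 194 outside the family. The highest r with bta-miR-130b over the 14 heifers was that of bta-miR-18a, a member of the miR-17-92 cluster (0.840), followed by bta-miR-24-3p (0.802) and bta-miR-23b-3p (0.780). For bta-miR-454 these were bta-miR-1949 (0.768), bta-miR-24-3p (0.686) and bta-miR-10167-3p (0.663). For bta-miR-130a they were bta-miR-10167-3p (0.695), bta-miR-22-3p (0.674) and bta-miR-423-5p (0.636). bta-miR-24-3p was thus among the closest to both abundant members, and bta-miR-10167-3p among the closest to bta-miR-130a and bta-miR-454. The miRNAs most like bta-miR-301a were bta-miR-92a (0.685), bta-miR-2478 (0.680) and bta-miR-1306 (0.671), and those most like bta-miR-301b were bta-miR-17-5p (0.716), bta-miR-103 (0.654) and bta-miR-24-3p (0.638). These were picked as the highest of 194 values, and no test was made on them. The values pool both groups, and bta-miR-2478 and bta-miR-1306 themselves passed both DEMI thresholds with edgeR. Their log2 fold changes were -0.78 and -0.58 (edgeR unadjusted p = 0.000944 and 0.0463, adjusted p = 0.161 and 0.828). With values centred on the group mean, an alternative chosen after seeing the data, r with bta-miR-301a was 0.577 for bta-miR-92a, 0.441 for bta-miR-2478 and 0.544 for bta-miR-1306. Over the same 194 miRNAs the median r was between -0.0060 and 0.0453 for each member. Some of these names may hold the same reads, since bta-miR-10174-3p had the same edgeR fold change and SE as bta-miR-23b-3p. The place of bta-miR-23b-3p may therefore be shared.

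The members were compared with sequencing depth and with the blood cell marker sums in 25 relations. None had an adjusted p of at most 0.05, and the r with log2 total count lay between -0.119 for bta-miR-454 and 0.176 for bta-miR-301a. By Pearson's r the strongest relation was that of bta-miR-301a with the myeloid sum, with r -0.722 (permutation p = 0.00559, adjusted p = 0.140 over the 25 relations) and rho -0.677 (permutation p = 0.0103, adjusted p = 0.0641). Leaving out the 2 heifers with the most distant myeloid sums gave an r of -0.619, and r was -0.956 within the SFH group and -0.364 within the FH group. On CPM without TMM normalization its r with the myeloid sum was -0.829 (permutation p = 0.000940, adjusted p = 0.0235), and with a pseudocount of 1 it was -0.701 (permutation p = 0.00737, adjusted p = 0.184). With the lymphocyte sum, bta-miR-301a had an r of -0.230 over the 14 heifers, but -0.878 within the SFH group and 0.153 within the FH group. These values within a group were not tested. SFH heifers 17, 26, 28 and 30 had no count of bta-miR-301a, so that the SFH values rest largely on SFH heifers 21, 23 and 32. The myeloid sum itself was 26976 ± 5795 CPM (SD, n = 7) in the FH group and 34576 ± 7912 CPM (SD, n = 7) in the SFH group. It includes the general leukocyte markers bta-miR-142-3p and bta-miR-142-5p, so it is not a measure of myeloid cells alone. The edgeR log2 fold changes were 0.22 for bta-miR-223, 0.39 for bta-miR-142-5p and -0.15 for bta-miR-142-3p (unadjusted p = 0.254, 0.120 and 0.691). The part of this sum in the lower observed mean of bta-miR-301a in SFH was not tested.

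By rho the strongest relations were those of bta-miR-301b with the lymphocyte sum and bta-miR-454 with the erythroid sum. bta-miR-454 had an r of -0.610 with the erythroid sum (permutation p = 0.0186, adjusted p = 0.214) and a rho of -0.723 (permutation p = 0.00443, adjusted p = 0.0554), and leaving out the 2 heifers with the most distant erythroid sums gave an r of -0.659. With the same sum bta-miR-130a had an r of -0.362 and a rho of -0.670 (permutation test, adjusted p = 0.581 and 0.0641). bta-miR-301b had an r of -0.591 with the lymphocyte sum (permutation p = 0.0256, adjusted p = 0.214) and a rho of -0.772 (permutation p = 0.00211, adjusted p = 0.0527), with r -0.697 without the 2 farthest heifers. On CPM without TMM normalization these relations were weaker. The rho was then -0.596 for bta-miR-454, -0.657 for bta-miR-130a and -0.713 for bta-miR-301b (permutation test, adjusted p = 0.171, 0.104 and 0.0752). The erythroid sum was 2493 ± 846 CPM (SD, n = 7) in the FH group and 3482 ± 2724 CPM (SD, n = 7) in the SFH group, and the lymphocyte sum was 78721 ± 17731 CPM and 77699 ± 23366 CPM.

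Other miRNAs have seeds that resemble, but are not the same as, the seed of this family. bta-miR-148a, bta-miR-148b and bta-miR-152 were all tested, and 0 of 3 passed both thresholds, with a median log2 fold change of 0.04. Of bta-miR-17-5p, bta-miR-20a, bta-miR-20b, bta-miR-93, bta-miR-106a and bta-miR-106b, 0 of 6 passed both, with a median of 0.16. Over all 341 miRNAs the median was 0.06 and 3.81% passed both, so that a count of 0 in lists of this length says nothing about them. bta-miR-17-5p, the miRNA most like bta-miR-301b across heifers, was at 990 CPM in the FH group and 1406 CPM in the SFH group on average, with a log2 fold change of 0.43 (SE 0.18, edgeR adjusted p = 0.661). In sum the miR-148 and miR-152 miRNAs were at 8110 ± 2112 CPM (SD, n = 14) and the miR-17, miR-20, miR-93 and miR-106 miRNAs at 11185 ± 1596 CPM (SD, n = 14), against 671 ± 174 CPM (SD, n = 14) for the miR-130, miR-301 and miR-454 family.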

How the data were processed

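Small RNA libraries of 14 heifers were analysed, 1 per heifer, grouped by the pregnancy outcome in the labels. The authors trimmed the reads with Cutadapt, mapped them with miRDeep2 to ARS-UCD1.2 and to miRBase miRNAs, and deposited raw counts per mature miRNA and precursor entry. The authors also deposited CPM for 341 miRNAs. These equalled the counts divided by the heifer's total over those miRNAs, to within 0.000001 in all 14 heifers. Of the 1207 entries, the entry with the highest total was kept for each of 1030 mature names, of which 614 had a count. Those reaching a CPM of 1 in 7 or more heifers were fitted with the quasi-likelihood F-test of edgeR 4.0.16 in R 4.3.3, with TMM normalization, group as the only term and Benjamini-Hochberg adjustment over all miRNAs fitted. The standard error is the size of the fold change over the square root of F. Single values were compared on log2(TMM-normalized CPM + 0.5) by two-sided exact permutation over all 3432 arrangements, or 16384 sign flips for differences within a heifer. Correlations over 14 heifers used 100000 permutations. bta-miR-301b did not pass the filter and was compared by exact permutation. DESeq2 1.42.0, limma 3.58.1, other normalizations, filters and pseudocounts, and leaving out each heifer were the alternatives. Other steps were run with scipy 1.17.1, pandas 2.3.3 and numpy 2.4.6 under Python 3.11.15.

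The miRNAs named are the 5 members, the 3 miRNAs most correlated with each, the cell type markers and 2 lists with similar seeds. bta-miR-10174-3p is also named, because its fit equalled that of bta-miR-23b-3p. The members and lists were chosen with earlier results of these data known. The labels name no batch, and no library was a copy of another.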

Additional observations from a re-analysis of the deposited data

Results flagged for a closer look

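In the FH group, bta-miR-301b was at 2.38 CPM in heifer 27, from 13 counts, while the other FH heifers had at most 1 count. The gap from heifer 27 to the next FH heifer was 0.911 of the group's range. In the SFH group, the log2 ratio of bta-miR-130a over bta-miR-130b was -8.26 in heifer 28, a gap of 0.699 of the range to the next heifer. SFH heifer 28 had 3 counts of bta-miR-130a. In all, 18 groups of values were examined for a heifer far from the others, and 2 had one. A rate of about 1 in 20 by chance holds for normally distributed values. The 2 flagged groups rest on few counts, so that this rate does not apply to them.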

How the results depend on the processing

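The direction of SFH relative to FH was the same under every alternative run for bta-miR-130a, bta-miR-301a, bta-miR-301b and bta-miR-454. That of bta-miR-130b was reversed without FH heifer 22, and its log2 fold change ranged from -0.0079 to 0.23 with 1 heifer left out. bta-miR-301a passed both thresholds in limma-voom (-3.11, with 23 of the 341 miRNAs past both). It ranged from -3.24 to -2.23 with 1 heifer left out, passing without SFH heifer 21 (18 of the 341 past both). Its permutation difference, under alternatives chosen after seeing the data, lay between -3.35 and -1.90. The fit of miRNAs with at least 10 counts in every heifer held neither bta-miR-130a nor bta-miR-301a. Alternatives that keep the CPM filter gave no edgeR value for bta-miR-301b. Without the filter its log2 fold change was 3.14, which did not pass (edgeR unadjusted p = 0.133).

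The number of miRNAs past both thresholds, 13 (5 higher and 8 lower in SFH), was 23 in limma-voom (15 and 8), 126 of 614 without the CPM filter (81 and 45) and 20 of 434 with every precursor entry kept (4 and 16). It was 16 in DESeq2 (5 and 11) and 14 with library totals or upper quartile factors (7 and 7 in each). It ranged from 11 to 22 with 1 heifer left out, and was 20 without SFH heifer 26 and 22 without FH heifer 24. The order of the 5 mean levels over both groups together was the same in 17 of 17 alternatives, but it was not the order within the SFH group.

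The number of member pairs with an adjusted p of at most 0.05, 0 of 10, was 0 to 1 with 1 heifer left out, the 1 being bta-miR-130a and bta-miR-454. The r of bta-miR-301a and bta-miR-301b was reversed with a pseudocount of 0.1 (0.0736) and with values centred on the group mean (0.290), and ranged from -0.131 to 0.0335 with 1 heifer left out. Of the 4 ratios, 2 passed, both with bta-miR-301a, against 1 with a pseudocount of 0.1 and 0 to 2 with 1 heifer left out. Of the 25 relations with depth and markers, 1 passed without TMM normalization. Except where fewer heifers or other miRNAs were fitted, the cause was not tested. Counts limit bta-miR-301a, bta-miR-301b and, in 4 heifers, bta-miR-130a. No paired analysis was possible because the groups share no heifer number.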
